A study of Mus musculus with 47 samples.

Results

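The 39 Hox genes of the mouse were followed through brainstem and hippocampus RNA-seq libraries. A gene was a member if it was protein-coding and its symbol was Hox followed by a cluster letter (a to d) and a number. Of the 39 members, 26 had a row in the brainstem count table and 13 in the hippocampus table, 12 in both, so that 27 members stood among the 35032 genes with a row in either region. The other 12 members had no row in the tables analysed here, whose lowest row total was 2 counts. The libraries came from male C57BL/6 mice, either wild type (WT) or transgenic (TG). TG mice were homozygous for a mutant human transgene under the Thy1 promoter, which drives it in neurons of the central nervous system, and WT mice were kept as a parallel colony derived from the same outcross. Both genotypes received standard diet (SD) or high-fat diet (HFD) from shortly after weaning until about a year of age. This gave 5 WT_SD, 6 WT_HFD, 6 TG_SD and 6 TG_HFD brainstem libraries and 6 hippocampus libraries in each of the 4 groups, each library from 1 animal. Brainstem here means the medulla (oblongata and spinalis), taken backwards from a set front limit towards the spinal cord, whereas the hippocampus was taken whole.

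Hox genes encode homeodomain transcription factors that give cells along the head-to-tail axis their positional identity. They lie in 4 clusters (HoxA to HoxD), and genes at the same place in different clusters form 1 of 13 paralog groups. Within a cluster the order of the genes follows the order of their front limits of expression in the embryo: groups 1 to 5 have theirs at successive levels of the hindbrain, groups from 6 upwards at the hindbrain-cord junction and along the spinal cord, and the forebrain is formed without them. Neurons of the adult hindbrain and cord keep part of this code.

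The paralogs resemble each other most in the homeobox, which raises the question of whether short reads can be assigned to 1 member. The stretch of 48 bases (16 codons) of the homeobox that encodes the core of the DNA-recognition helix is printed here for 6 of the 9 members with enough counts for testing, because it is where misassignment would be most likely. Sequences run 5′ to 3′ on the sense strand of the GENCODE transcripts for GRCm38, and capitals mark the bases that differ from Hoxb8.
Hoxa2: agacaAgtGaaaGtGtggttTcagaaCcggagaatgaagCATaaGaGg
Hoxa4: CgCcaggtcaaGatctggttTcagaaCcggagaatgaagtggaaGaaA
Hoxc4: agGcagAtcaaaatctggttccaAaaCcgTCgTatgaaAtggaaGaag
Hoxa5: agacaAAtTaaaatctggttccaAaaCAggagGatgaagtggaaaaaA
Hoxb6: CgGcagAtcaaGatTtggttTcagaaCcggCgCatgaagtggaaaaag
Hoxb8: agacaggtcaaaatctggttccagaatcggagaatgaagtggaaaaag
From Hoxb8 the other 5 differed at 7 to 11 of these 48 bases and at 0 to 3 of the 16 residues they encode. Hoxa4 encoded the same residues as Hoxb8 from 7 different bases, and Hoxa2 was the most distant with 11 bases and 3 residues. Across whole transcripts, 8 of the 9 members shared no window of 75 bases, the read length, with another member. The exception was Hoxc5, of whose windows 3.12% also occurred in Hoxc10 transcripts. With genes other than Hox members, Hoxa2 shared 11.5% of its windows (Gm28308) and Hoxa4 11.9% (Gm29430), both predicted gene models, and Hoxb5 shared 0.93% with its antisense transcript Hoxb5os. The strand setting of the counting was not given in the sources used here, so reads of a member and of an antisense neighbour cannot be told apart.

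Brainstem libraries held 10020784 to 15078812 counts and hippocampus libraries 11945971 to 17328447. Defining markers separated the regions: Emx1, a transcription factor of the dorsal forebrain, totalled 22 counts over the 23 brainstem libraries and 1713 over the 24 hippocampus libraries, and Slc6a5, the glycine transporter of hindbrain and cord neurons, 110004 and 23 counts, respectively. In the fit over both regions all 6 markers of hippocampal neurons were called lower in brainstem. All 3 tested markers of glycinergic neurons, 3 of motor neurons and 4 of oligodendrocytes were called higher. Among all 13993 genes 31.6% were higher and 29.8% lower. Some markers, such as Slc6a5, Glra1 and Chat (23, 15 and 14 hippocampal counts), passed the filter only through brainstem and had to differ. Meninges (1 higher, 2 lower) and granule cell markers (2 higher, 1 lower) went both ways.

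In brainstem the code was read from group 1 to group 8 and then broke off. Over the 23 libraries 31940 counts fell on Hox genes. Groups 4 and 5 together carried most of them, with 22.4% for group 4 and 47.7% for group 5. Groups 1, 2 and 3 held 1.83%, 4.47% and 7.97%, and groups 6, 7 and 8 held 6.54%, 2.31% and 6.59%. Group 9 held 0.0501%, groups 10 to 12 had no row, and group 13 held 0.150%. Levels per length, given here as counts-per-million (CPM) values per kilobase of GRCm38 exon and summed over the members of a group, were 0.976, 2.56 and 1.91 in groups 1, 2 and 3, 11.01 and 22.8 in groups 4 and 5, and 3.95, 1.44 and 2.74 in groups 6, 7 and 8. Groups 4 and 5 led on both scales, whereas per length group 2 lay above group 3 and group 3 below groups 6 and 8. By cluster, HoxB held 41.2% of the counts, HoxA 35.2%, HoxC 18.5% and HoxD 5.14%.

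**Figure D1:**
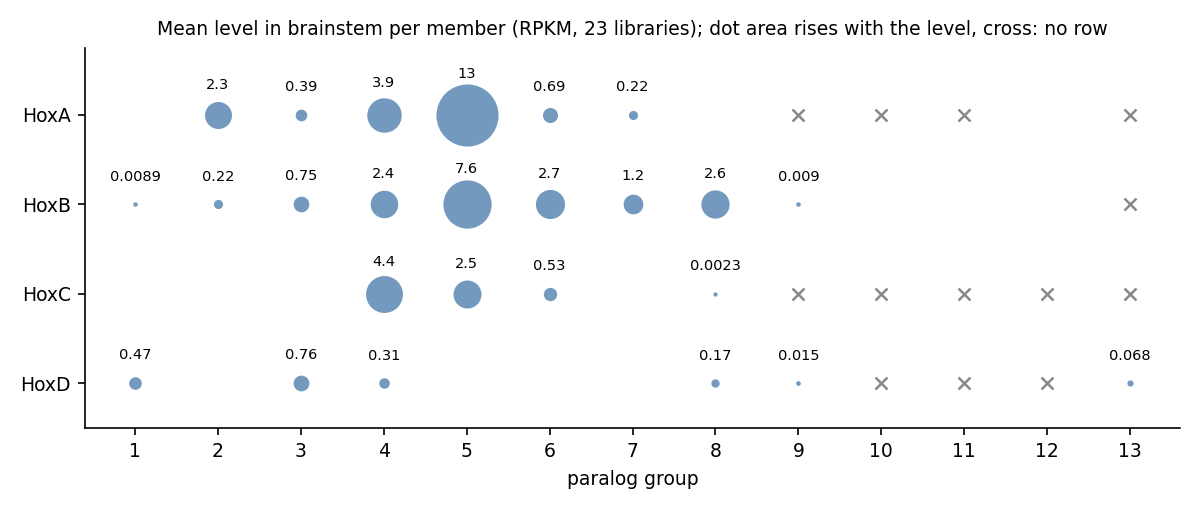
Mean brainstem level of the Hox genes over 23 libraries (RPKM, that is CPM per kilobase of exon, printed over each dot, with dot area rising with the level) by cluster (rows) and paralog group (columns), where a cross marks a gene without a row. The highest levels lie in groups 4 and 5, led by Hoxa5 at 12.6 and Hoxb5 at 7.59, and beyond group 8 there are crosses and levels near 0.

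The members with the most anterior limits were low. Hoxa2, which patterns the second arch and the rostral hindbrain, was the only member of groups 1 to 3 with a mean count over 50. It had 52.5 counts per library (30 to 76) and 2.34 ± 0.415 CPM per kilobase (SD, n = 23). Its coefficient of variation (CV) of 17.7% was the lowest of the 9 tested members. Hoxb3, Hoxd3 and Hoxa3 had 40.7, 40.3 and 29.7 counts per library, but 52.9% of the exon bases of Hoxb3 lay opposite Hoxb3os, and 62.4% of those of Hoxd3 were shared on the same strand with Hoxd4 or the model Gm28230, so their levels are uncertain. The same held for Hoxd4, with 52.3% of its exon bases shared. Hoxb2, the group 2 gene of HoxB, had 9.61 counts per library, and 27.3% of its exon bases lay opposite Hoxb3os. In group 1, Hoxd1 had 11.04 counts per library, whereas Hoxb1, the marker of the fourth rhombomere in the embryo, had 0.261.

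Groups 4 and 5, whose front limits lie in the caudal hindbrain, contributed 6 of the 9 tested members. Hoxa5, needed for the phrenic motor neurons that drive breathing, had the highest level at 298.9 counts per library (74 to 584) and 12.6 ± 4.22 CPM per kilobase (SD, n = 23). Hoxb5 followed at 265.9 counts (75 to 460) and 7.59 ± 2.23 CPM per kilobase. Hoxc4 had 142.9 counts and 4.42 ± 1.099 CPM per kilobase, Hoxa4 77.4 counts and 3.85 ± 0.846, Hoxc5 97.7 counts and 2.52 ± 0.878, and Hoxb4 79.0 counts and 2.44 ± 0.708. When the 9 tested members were ordered by level per length, the intervals of mean ± SD overlapped between every pair of neighbours, Hoxa5 and Hoxb5 included. Hoxd4, the HoxD member of group 4, had 11.3 counts per library.

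Groups 6 to 8, which belong to the cervical and thoracic cord, were represented mainly by HoxB. Hoxb8, a gene of the trunk spinal cord, had 85.3 counts per library and ranged from 0 to 351. Hoxb6 had 67.3 counts (4 to 140) and Hoxb7 24 (1 to 100). Per length the 3 genes had 2.57 ± 2.29, 2.74 ± 1.51 and 1.22 ± 1.13 CPM per kilobase (SD, n = 23), and their CVs were 89.2%, 55.2% and 92.7%. The HoxA, HoxC and HoxD members of these groups were lower, with 16 counts for Hoxc6, 8.04 for Hoxa7 (20.4% of whose exon bases lay opposite Hoxaas3), 7.57 for Hoxa6, 6.13 for Hoxd8 and 0.087 for Hoxc8.

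Beyond group 8 only Hoxb9, Hoxd9 and Hoxd13 had a row. Hoxd13, a gene of the limb and hindgut end of the body, had 1 to 5 counts in 22 of 23 libraries and 0 in the other, with a mean of 2.09. Hoxd9 and Hoxb9 had 0.391 and 0.304 counts per library. Hoxd13 thus stood above Hoxd9 and Hoxb9, at a depth too low to compare libraries.

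Groups 6 to 8 varied more between libraries than groups 1 to 5 did. The CV of the summed CPM was 25.3%, 15.8%, 19.95%, 22.98% and 31.1% for groups 1 to 5 and 54.7%, 88.1% and 88.1% for groups 6, 7 and 8. The share of Hox counts that fell on groups 6 to 13 was therefore followed as a summary of the caudal end of the code in each library. Where the lower cut lay in each animal was not given in the sources used here, so its part in this share was not tested. The share had a median of 13.3% over the 23 libraries. The lowest were TG_SD replicate 7 with 4.91% (39 of 794 counts, 95% Wilson interval 3.61% to 6.64%) and WT_SD replicate 4 with 4.95% (24 of 485). The highest were TG_SD replicate 5 with 26.1% (432 of 1656, 24.03% to 28.3%), WT_SD replicate 6 with 25.4%, WT_SD replicate 8 with 25.1% and TG_HFD replicate 1 with 20.9%. The intervals of 19 libraries lay wholly above that of the lowest library, and those of 20 lay wholly below that of the highest, so the spread exceeded counting error, which is all these intervals cover. Groups 1 to 5 summed to between 37.0 and 148.5 CPM (by library total), a 4.01-fold range, and groups 6 to 13 to between 1.93 and 49.8, a 25.9-fold range.

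**Figure D2:**
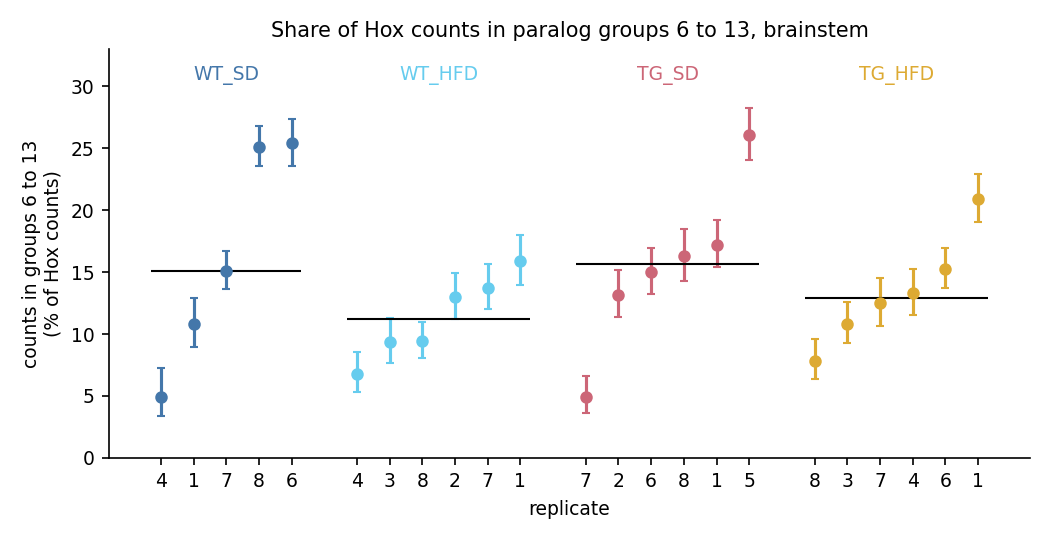
Share of Hox counts on paralog groups 6 to 13 in each of the 23 brainstem libraries (percent, points with 95% Wilson intervals), arranged by group, with group medians as lines. Libraries run from 4.91% to 26.1%, and within both WT_SD and TG_SD they span nearly that whole range.

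The share did not separate the 4 groups, whose ranges overlapped. WT_SD had values of 10.8%, 4.95%, 25.4%, 15.1% and 25.1% in replicates 1, 4, 6, 7 and 8. WT_HFD ran from 6.75% over a median of 11.2% to 15.9%, TG_SD from 4.91% over 15.6% to 26.1%, and TG_HFD from 7.83% over 12.9% to 20.9%. The SD within a group was 3.401 percentage points in WT_HFD, 4.44 in TG_HFD, 6.84 in TG_SD and 8.97 in WT_SD, and no group lay wholly above or below another. Bulk RNA does not tell fewer cells of a type from less RNA per cell, so a larger share of caudal tissue cannot be told apart from a change of level within the same cells.

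The library values of single members showed where this spread lay. In WT_SD, Hoxb8 was at 2.93, 0, 13.7, 8.97 and 24.7 CPM in replicates 1, 4, 6, 7 and 8. It ran from 1.16 over a median of 3.54 to 6.10 CPM in WT_HFD, from 0.820 over 6.54 to 16.7 in TG_SD and from 1.36 over 5.45 to 16.9 in TG_HFD. All 4 groups overlapped, and the lowest and the highest library both belonged to WT_SD. The count of 0 in replicate 4 allows a level of up to 0.241 CPM (3 counts, counting error only). Hoxa5 in the same 5 WT_SD libraries was at 20.6, 6.14, 31.5, 32.7 and 41.1 CPM, and ran from 15.4 over 20.8 to 22.9 CPM in WT_HFD, from 14.9 over 24.9 to 32.6 in TG_SD and from 13.7 over 24.3 to 35.7 in TG_HFD. WT_SD replicate 4, TG_SD replicate 7 and TG_HFD replicate 8 were the lowest of their groups for both genes. Hoxa2 in the WT_SD libraries was at 3.81, 4.15, 3.06, 5.21 and 4.50 CPM, and ran from 2.48 to 4.95 CPM in WT_HFD, 3.17 to 5.46 in TG_SD and 4.08 to 4.98 in TG_HFD. Its highest value of TG_SD belonged to replicate 7, the library with the lowest Hoxb8 of that group, and WT_SD replicate 4, without a Hoxb8 count, was at the median of its group for Hoxa2.

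The values of the other named members follow, also in WT_SD replicates 1, 4, 6, 7 and 8. Hoxb6 was at 5.18, 0.332, 9.73, 6.51 and 9.85 CPM in WT_SD, and ran from 2.48 over 3.996 to 6.44 in WT_HFD, 1.28 over 5.69 to 12.6 in TG_SD and 1.43 over 5.23 to 8.15 in TG_HFD. Hoxc5 was at 7.91, 2.99, 10.1, 10.1 and 13.3 CPM in WT_SD, and ran from 4.05 over 6.44 to 8.08 in WT_HFD, 5.46 over 8.32 to 11.8 in TG_SD and 4.96 over 7.94 to 12.9 in TG_HFD. For both genes WT_SD replicate 4, WT_HFD replicate 4, TG_SD replicate 7 and TG_HFD replicate 8 were the lowest of their groups, as they were for Hoxb8. Hoxb5 was at 19.6, 6.22, 24.5, 29.9 and 32.4 CPM in WT_SD, and ran from 15.7 over 19.2 to 21.8 in WT_HFD, 13.8 over 21.0 to 28.1 in TG_SD and 13.5 over 22.4 to 33.6 in TG_HFD. Hoxc4, the highest HoxC gene per length, was at 8.89, 5.31, 13, 14.4 and 17.9 CPM in WT_SD, with 7.66 to 12.1 in WT_HFD, 9.41 to 15.2 in TG_SD and 8.09 to 16.2 in TG_HFD. In both the 4 groups overlapped and WT_SD again held the lowest library. Hoxb4 was at 6.15, 2.32, 7.60, 7.74 and 11.5 CPM in WT_SD, with 4.72 to 7.32 in WT_HFD, 4.83 to 7.39 in TG_SD and 4.39 to 7.96 in TG_HFD. Hoxa4 was at 5.47, 3.15, 5.75, 6.44 and 9.35 CPM in WT_SD, with 4.64 to 8.22 in WT_HFD, 4.49 to 7.44 in TG_SD and 4.76 to 7.57 in TG_HFD. For these genes both the lowest and the highest of the 23 libraries were WT_SD, replicates 4 and 8. Hoxd3, the highest HoxD gene per length at 0.761 CPM per kilobase, ran from 1.74 CPM in WT_HFD to 4.82 in TG_HFD, with groups that overlapped throughout.

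**Figure D3:**
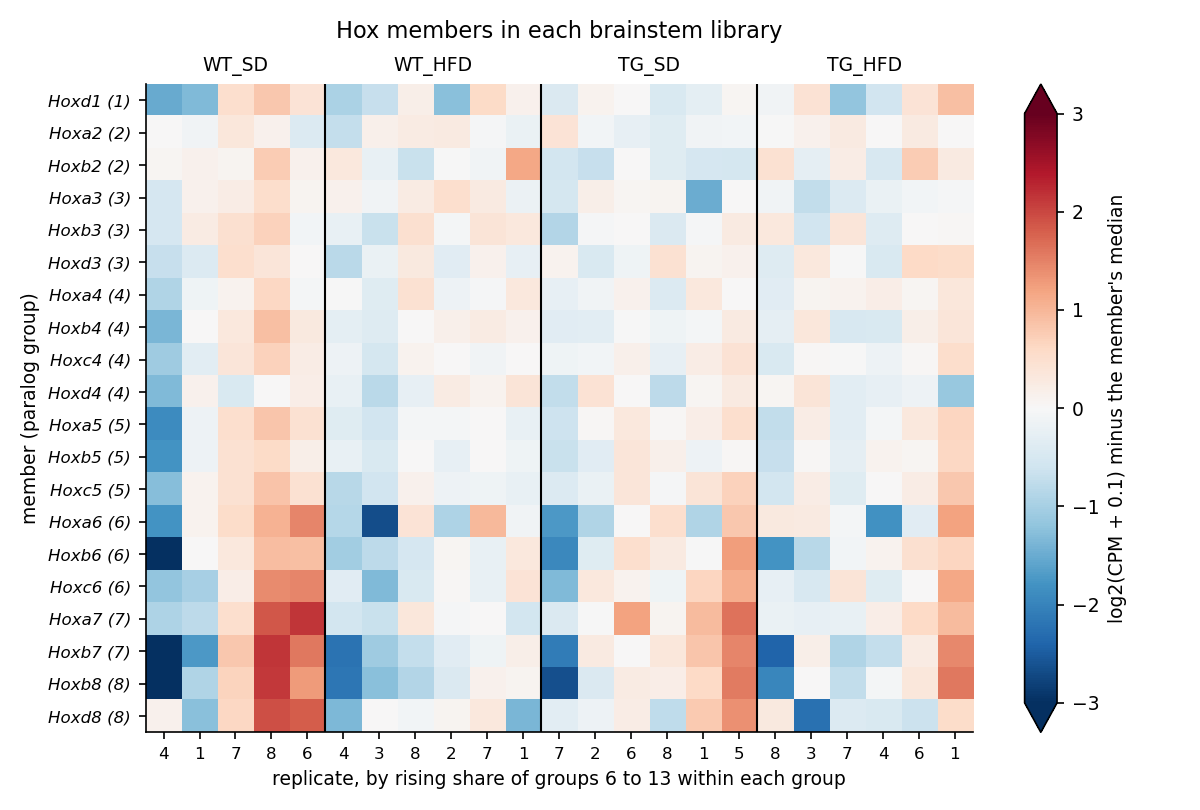
Heat map of Hox members with a mean of 5 counts or more (rows, paralog group in brackets) in the 23 brainstem libraries (columns, by group and by rising share of groups 6 to 13), coloured by log2(CPM + 0.1) minus the member's own median. Contrast between libraries is strongest in the lower rows, where Hoxb8 spans 0 to 24.7 CPM, and weak in rows such as Hoxa2, which stays between 2.48 and 5.46 CPM.

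The tested members of groups 4, 5 and 6 varied with Hoxb8 of group 8 across the 23 libraries, whereas Hoxa2 of group 2 was not detectably related to it. No member of group 7 was tested, and Hoxa2 was the only tested member below group 4. At 52.5 counts per library and a CV of 17.7% Hoxa2 had little spread to correlate, so a relation could have been missed. Log2 CPM of each tested member was correlated with that of Hoxb8, the most caudal of them, by permutation tests with 100000 resamples, adjusted over the 24 relations computed (8 members, 15 gene lists and the library total). Pearson's r was 0.961 for Hoxa5 (Spearman's rho 0.942), 0.944 for Hoxb6 (0.887), 0.917 for Hoxc5 (0.900), 0.910 for Hoxb5 (0.852), 0.877 for Hoxc4 (0.837) and 0.862 for Hoxb4 (0.756), each with an adjusted permutation p of 4e-05 from the smallest p these resamples can give, 1e-05. Hoxa4 correlated less closely (r = 0.722, rho = 0.553, adjusted permutation p = 0.00048 and 0.019). The values for Hoxa2 missed the threshold (r = -0.05, rho = -0.15, adjusted permutation p = 0.821 and 0.671). Those for the library total missed it too (r = 0.05, rho = 0.04, adjusted permutation p = 0.821 and 0.86). With the group means removed the 7 members kept r between 0.753 and 0.961. Without the 2 libraries farthest from the median of Hoxb8, WT_SD replicate 4 and TG_SD replicate 7, r was 0.922 for Hoxa5 and 0.493 for Hoxa4 (adjusted permutation p = 0.0495), the lowest of the 7.

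**Figure D4:**
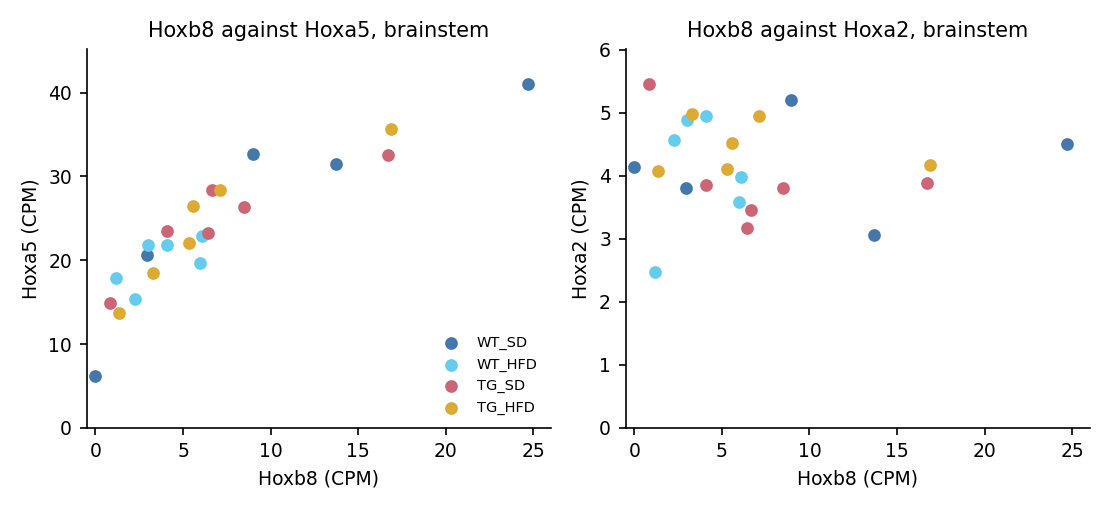
Level of Hoxa5 (left) and Hoxa2 (right) against that of Hoxb8 in the 23 brainstem libraries (CPM, linear axes), 1 point per library, coloured by group. Hoxa5 follows Hoxb8 (r = 0.961 of log2 CPM), while Hoxa2, with its small spread, shows no detectable slope against it (r = -0.05).

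Among the members with too few counts for testing, the relation to Hoxb8 did not follow the paralog groups throughout, and it is given here as a description. Pearson's r with Hoxb8 over the 23 libraries was 0.934 for Hoxb7, 0.789 for Hoxc6, 0.762 for Hoxa7 and 0.649 for Hoxa6. In groups 1 to 4 it was 0.688 for Hoxd1, 0.623 for Hoxd3, 0.469 for Hoxb3, 0.420 for Hoxd4, 0.235 for Hoxa3 and 0.107 for Hoxb2. Hoxd8, with 6.13 counts per library, had 0.412. These points share libraries and, for the low genes, are blurred by counting error.

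The stretches upstream of Hoxa5 and Hoxb8, which varied together, and of Hoxa2, not detectably related to Hoxb8, are shown for comparison in sequence. Each is the 250 bases before the RefSeq start in GRCm38.p6, on the strand of the gene: Hoxa2 at chr6:52164832-52165081 (minus strand), Hoxa5 at chr6:52204588-52204837 (minus strand) and Hoxb8 at chr11:96281655-96281904 (plus strand). None of the 3 overlaps an annotated exon. Capitals mark matches on either strand to the Hox-Pbx motif TGATNNAT or the CDX motif TTTATNG.
Hoxa2: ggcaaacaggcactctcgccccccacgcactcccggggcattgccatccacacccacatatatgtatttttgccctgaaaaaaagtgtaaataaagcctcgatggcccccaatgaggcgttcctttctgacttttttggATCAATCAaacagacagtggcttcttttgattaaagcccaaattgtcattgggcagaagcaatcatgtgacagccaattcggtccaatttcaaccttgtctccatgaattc
Hoxa5: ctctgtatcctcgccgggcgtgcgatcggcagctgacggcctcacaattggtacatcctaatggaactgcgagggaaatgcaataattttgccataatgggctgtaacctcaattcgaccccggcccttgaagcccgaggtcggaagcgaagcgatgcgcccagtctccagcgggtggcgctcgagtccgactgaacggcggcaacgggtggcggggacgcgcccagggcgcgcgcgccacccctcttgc
Hoxb8: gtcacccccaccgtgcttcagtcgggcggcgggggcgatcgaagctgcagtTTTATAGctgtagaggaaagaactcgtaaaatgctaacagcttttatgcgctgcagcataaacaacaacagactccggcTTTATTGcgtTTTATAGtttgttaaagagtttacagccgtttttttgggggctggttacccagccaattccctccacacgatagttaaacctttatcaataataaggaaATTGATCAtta
Hoxa2 had 1 Hox-Pbx match and Hoxb8 1, Hoxb8 also held 3 CDX matches, and Hoxa5 held neither. No match overlapped another. Among all 32851 promoter entries of the same length, 7.7% held the Hox-Pbx letters and 9.8% the CDX letters, and among the 24 entries of 22 Hox genes 16.7% and 8.3%, respectively. GC content was 46.4% for Hoxa2, 63.6% for Hoxa5 and 44.4% for Hoxb8, against a median of 52.4% over all promoters. CpG dinucleotides numbered 6, 28 and 12, against a median of 6. Only 5 of the 9 tested members had a promoter entry. A match is a run of letters and not a binding site.

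Markers of cerebellar granule cells, from tissue next to the medulla, were related to Hoxb8 in the opposite direction. The summed CPM of 4 genes of cerebellar granule cells (Gabra6, Cbln3, Neurod1 and Barhl1) ran from 6.12 to 72.4, with a median of 23.9. The lowest was WT_SD replicate 8, the library with the most Hoxb8, and the highest TG_SD replicate 2. Each list was correlated with Hoxb8 as the mean log2 CPM of its genes, not as this sum. That mean of the 4 genes was lower where Hoxb8 was higher (r = -0.60, rho = -0.72, adjusted permutation p = 0.00543 and 0.000583). Their defining member Gabra6 ranged from 0.563 to 22.2 CPM. The sum ran from 6.12 to 27.4 CPM in WT_SD, 17.8 to 38.0 in WT_HFD, 9.86 to 72.4 in TG_SD and 9.03 to 27.7 in TG_HFD. None of the 4 markers was at 0 in any library, and their part in the Hox result was not tested. The mean log2 CPM of the 11 measured transcripts of the Hox clusters other than members was higher where Hoxb8 was higher (r = 0.57, rho = 0.58, adjusted permutation p = 0.0161 and 0.0136). Their summed level ran from 8.94 to 12.6 CPM. Several of them overlap exons of members on the opposite strand, so reads of members may be among their counts. The remaining 13 lists had r between -0.42 and 0.23 and did not pass over all 23 libraries by Pearson's r, among them caudal hindbrain and cord position genes (r = 0.23, adjusted permutation p = 0.485), motor neurons (r = 0.14, adjusted permutation p = 0.71) and markers of dorsal root ganglion and Schwann cells (r = -0.19, adjusted permutation p = 0.579). Markers of hippocampal neurons passed by rho alone (r = -0.42, adjusted permutation p = 0.105, and rho = -0.51, adjusted permutation p = 0.0318). Without WT_SD replicate 4 and TG_SD replicate 7, hippocampal neuron markers (r = -0.54) and noradrenergic and serotonergic neuron markers (r = -0.54) passed too, both with an adjusted permutation p of 0.0276. The summed level of the noradrenergic and serotonergic markers ran from 44.3 CPM in WT_SD replicate 6 to 148.1 in WT_HFD replicate 3, and that of the hippocampal neuron markers from 67.7 to 111.0 CPM. None of these 11 markers was at 0 in any library, and their part was not tested. Choroid plexus markers varied most, from 11.7 to 2959 CPM in sum, with r = -0.09 of their mean log2 CPM to Hoxb8 (adjusted permutation p = 0.769).

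Among the 13331 tested genes that were not members, those most like the log2 ratio of groups 6 to 13 over groups 1 to 5 were Serpinb1b, a serine protease inhibitor (r = 0.896), Camk2a, a subunit of the calcium/calmodulin kinase of excitatory neurons (r = 0.886), Pcsk1, a prohormone convertase (r = 0.7997), Synpr, a synaptic vesicle protein (r = 0.791), and Galnt15, a glycosyltransferase (r = 0.767). These are descriptions over the same 23 libraries.

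The group comparison asked whether genotype or diet moved the position code. No Hox member was called different between groups in brainstem. Of the 9 members tested, 0 were called in any of the 5 contrasts by edgeR's quasi-likelihood test (Benjamini-Hochberg adjusted p up to 0.05 with a log2 fold change of 0.3 or more in either direction), 0 had an unadjusted p under 0.05, and DESeq2 called 0. Among all 13340 genes tested the calls were 18 for TG_SD against WT_SD (0.135%), 6 for TG_HFD against WT_HFD (0.045%), 2 for WT_HFD against WT_SD (0.015%), 1 for TG_HFD against TG_SD (0.0075%) and 1 for the interaction (0.0075%). Beside such low background rates a count of 0 of 9 called says nothing particular about the members. In the same order of contrasts, 1384, 716, 720, 938 and 639 of the 13340 genes had an unadjusted p up to 0.05 (edgeR).

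The member with the smallest p in each contrast was as follows. Hoxb8 in WT_HFD against WT_SD was at a log2 fold change of -1.18 with an SE of 0.63 (adjusted p = 0.929), with the WT_HFD libraries lying within the range of WT_SD. Hoxb8 in the interaction of genotype and diet had 1.42 (SE 0.88, adjusted p = 0.984), and in TG_HFD against WT_HFD 0.88 (SE 0.74, adjusted p = 0.971). Hoxb4 in TG_SD against WT_SD had -0.26 (SE 0.21, adjusted p = 0.710) and Hoxa4 in TG_HFD against TG_SD 0.12 (SE 0.19, adjusted p = 0.942). The sign of 3 of these estimates rested on TG_HFD replicate 1, the library with the most Hoxb8 of its group: without it Hoxb8 was at -0.54 in TG_HFD against WT_HFD and at -0.28 in the interaction, and Hoxa4 at -0.03 in TG_HFD against TG_SD. Only changes much larger than these SEs could have been detected.

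**Figure D5:**
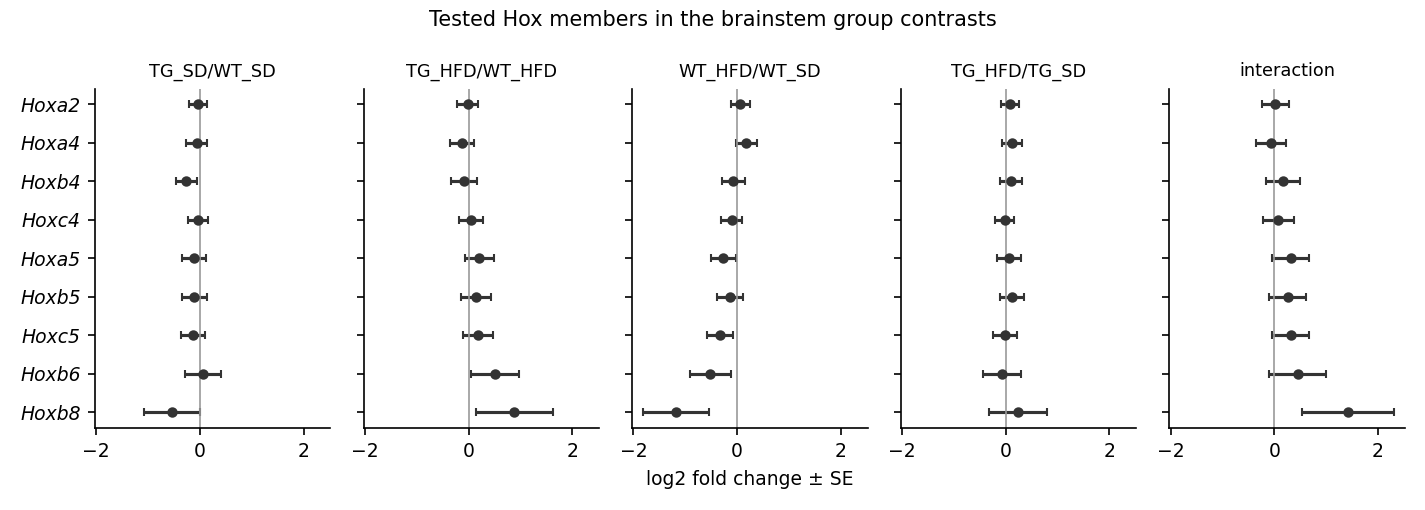
Log2 fold change of each of the 9 tested Hox genes in the 5 brainstem contrasts (points, with bars of 1 SE from edgeR). The longest bars belong to Hoxb8, with an SE of 0.63 in WT_HFD against WT_SD, and no gene was called in any contrast.

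Estimates for the members had larger SEs than those of genes in general, which were not matched to them for counts. An SE holds the spread between libraries as well as counting error. The median SE of the members' log2 fold changes was 0.23 in TG_SD against WT_SD, 0.28 in TG_HFD against WT_HFD, 0.25 in WT_HFD against WT_SD, 0.23 in TG_HFD against TG_SD and 0.36 in the interaction. Over all genes tested it was 0.07, 0.08, 0.07, 0.07 and 0.11 in the same order. Of the 9 estimates in each contrast, 8 were below 0 in TG_SD against WT_SD, 7 below 0 in WT_HFD against WT_SD, 6 above 0 in TG_HFD against either WT_HFD or TG_SD, and 8 above 0 in the interaction. Their medians, in the order in which the SEs were given, were -0.11, 0.15, -0.14, 0.08 and 0.26, against medians near 0 over all genes. Since 7 of the other 8 tested members were correlated with Hoxb8 between libraries, these are not 9 separate observations, and the contrasts that share a group share its libraries. These counts of signs turned with single libraries. Without TG_HFD replicate 1 the number above 0 was 0 in TG_HFD against WT_HFD, 1 in TG_HFD against TG_SD, 1 in the interaction and 5 in WT_HFD against WT_SD. Without WT_SD replicate 8 it was 7 in TG_SD against WT_SD and 5 in WT_HFD against WT_SD. Without WT_SD replicate 4, the library without a Hoxb8 count, it was 0 in TG_SD against WT_SD, 3 in TG_HFD against WT_HFD and 4 in TG_HFD against TG_SD. In that fit Hoxa5, Hoxb5 and Hoxb4 had an unadjusted p under 0.05 in TG_SD against WT_SD (edgeR, smallest adjusted p = 0.304). In WT_HFD against WT_SD 4 members did so (smallest adjusted p = 0.790), and 0 were called. The number of all genes at such a p was not taken in that fit.

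In hippocampus the code was nearly unread. The 24 libraries held 96 Hox counts in all, 1 to 14 per library with a median of 3.5, against 485 to 2809 with a median of 1297 in brainstem. Summed Hox CPM in hippocampus was 0.273% of that in brainstem. Of the 13 members with a row, Hoxd1 had 21 counts in 13 libraries, Hoxa7 20 in 13, Hoxa3 14, Hoxc5 9, Hoxb4 8 and Hoxc4 6. Hoxb1 and Hoxc13 had 4 each, and Hoxb2, Hoxb6, Hoxb9, Hoxc6 and Hoxd3 had 2 each. Hoxa2, Hoxa4, Hoxa5, Hoxb5 and Hoxb8, all among the 9 tested members of brainstem, had no row. Hoxc13 was the only member with a row in hippocampus alone. The hippocampal order did not follow the brainstem one, since Hoxd1 and Hoxa7, which led it, had 11.04 and 8.04 counts per library in brainstem. Of the 14 Hoxa3 counts, 12 came from TG_SD replicate 5, whose total of 14 Hox counts was the highest of any hippocampus library. In the fit over both regions 9 of 9 tested members were higher in brainstem (31.6% of all 13993 genes were), which is a description only, because these members passed the filter on mean count only through brainstem.

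Genes that work with the Hox code were called between the regions in both directions, as were genes in general, of which 31.6% were higher and 29.8% lower in brainstem. Of 9 cofactors, which bind DNA together with Hox proteins, 3 were called higher in brainstem and 3 lower by edgeR's quasi-likelihood test over both regions. Meis1 was higher by a log2 fold change of 4.52, Pbx3 by 2.98 and Meis2 by 1.61, whereas Pknox2 (-0.98) and Pbx4 (-0.49) were among those lower. Of 14 tested regulators of Hox expression 4 were higher and 5 lower in brainstem, with Cyp26b1, which degrades retinoic acid, at 1.43 and Rara, a retinoic acid receptor, at -1.003, and the Cdx genes had no row. These shares are read only beside those of all genes and show nothing particular to the lists. Among position genes 5 of 5 tested caudal ones were higher in brainstem, among them Pax2 (4.50) and Lmx1b (6.30), and 4 of 4 tested forebrain ones lower, among them Lhx2 (-4.81). These position genes passed the filter on mean count only through the region where they were higher, so their calls are a description only. In the 4 brainstem group comparisons and the interaction 0 of the 8 cofactors, 14 regulators and 5 caudal position genes tested there were called (edgeR), beside 0.0075% to 0.135% of all genes. An unadjusted p under 0.05 was reached by 0 to 2 cofactors, 0 to 1 regulators and 1 to 3 caudal genes per contrast (edgeR). Among all 13340 genes 639 to 1384 reached it per contrast. No forebrain position gene was tested between groups. Of the other lists only Myoc, a marker of meninges, was called, higher in TG_SD than in WT_SD (edgeR). The summed level of the 4 meninges markers was 61.7 to 76.2 CPM in TG_SD and 56.6 to 62.2 CPM in WT_SD. Their mean log2 CPM had r = 0.10 to Hoxb8 over the 23 libraries (rho = 0.06, adjusted permutation p = 0.769 and 0.847).

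The clusters carried further transcripts in brainstem. Of 18 listed transcripts that are not members, 11 had a row in brainstem and 2 in hippocampus. Hoxaas2, an antisense RNA of HoxA, had 898 counts over the 23 libraries, Hoxb3os 560, Hoxaas3 172 and Hotairm1, the RNA at the rostral end of HoxA, 152. Hoxaas2, Hoxb3os and Hoxaas3 overlap exons of members on the opposite strand, so reads of members may be among their counts. Evx2 and Evx1, homeobox genes beyond the caudal ends of HoxD and HoxA that mark interneurons of hindbrain and cord, had 624 and 537 counts. Hottip and Hotair, RNAs of the caudal parts of HoxA and HoxC, had no row.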

How the data were processed

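Poly(A) RNA of brainstem and hippocampus was sequenced single-end. Per the labels and the study's methods, the authors used FastQC 0.11.9, STAR 2.7.9a with the mouse genome (GRCm39, Ensembl annotation) plus the transgene, and DESeq2 1.32.0. The deposited files hold raw counts per gene, 1 table per region. The read counter and its strand setting are not given in the sources used here. Gene symbols were matched to 32610 of 33139 brainstem and 31295 of 31751 hippocampus rows.

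Brainstem genes averaging 50 counts or more were tested with edgeR 4.0.16 (quasi-likelihood, TMM) in 1 model over 23 libraries with 4 surrogate variables (sva 3.50.0). A gene was called at an adjusted p (Benjamini-Hochberg, all tested genes) up to 0.05 with a log2 fold change of 0.3 or more either way. The regions were compared over 47 libraries without pairing by animal, with rows missing from 1 region entered as 0. DESeq2 1.42.0 was an alternative, beside other filters, scalings, numbers of surrogate variables, the replicate number as a block and each library left out in turn. The edgeR step was tested on simulated data. Log2 CPM for correlations used a prior count of 2, and a gene list entered as the mean over its genes. Python 3.11.15 and scipy 1.17.1 gave permutation tests and intervals.

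The members and the gene lists were chosen with earlier results of these data known. By rule, values per group were given for the most caudal tested member, the highest member per length of each cluster, the 3 tested members with the largest CV, and the member with the smallest p in each contrast, and the 5 other genes most like the ratio of caudal to rostral groups were named. Hoxa2 and the list genes printed with values were picked after those values were seen. Exon lengths, overlaps and promoters come from GRCm38 annotations (GENCODE, RefSeq), an older build than that of the counts, so levels per length are approximate. Some genes and sequences, 1 Hox member among them, are not reported here.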

Additional observations from a re-analysis of the deposited data

Results flagged for a closer look

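In a check of each group for 1 library far from the others, 7 values in 60 groups checked stood apart. Chance gives about 1 in 20 for continuous values, but this rate does not hold for counts mostly at 0, so no excess is read from it. In brainstem these were Hoxa2 in TG_SD replicate 7, at 5.46 CPM against 3.88 for the next library, and Hoxb8 in TG_HFD replicate 1, at 16.9 CPM against 7.09. TG_SD replicate 7 was also the library with the lowest share of caudal Hox counts. In hippocampus TG_SD replicate 5 stood apart with 14 Hox counts, the next library of its group having 4. Of these, 12 were Hoxa3 counts, against 0 in the other libraries of the group. The 2 remaining Hoxa3 values were single counts, 1 in TG_HFD replicate 4 and 1 in WT_SD replicate 5, in groups otherwise at 0, where any count stands apart. Hoxd1 had 3 counts in hippocampus WT_HFD replicate 6, where the next library had 1. The hippocampal genes entered this check after their values were seen, and counts this low carry large counting error.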

How the results depend on the processing

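Over the 34 alternatives of each brainstem contrast (23 of them leaving out 1 library), the number of Hox members called stayed at 0. Leaving out a library gave 0 to 0. Among all genes tested these fits called few as well, from 0 to 87 per contrast. The most, 87 of 13340, came from DESeq2 without surrogate variables in TG_HFD against WT_HFD. Beside such rates a count of 0 members says nothing particular about them. The members tested were 9 except with a total count of at least 50 (21), filterByExpr (20) and no filter (26). Without TG_HFD replicate 1 the sign turned for Hoxb8 in TG_HFD against WT_HFD (-0.54), Hoxb8 in the interaction (-0.28) and Hoxa4 in TG_HFD against TG_SD (-0.033). Over all fits without 1 library these log2 fold changes lay between -0.54 and 1.25, -0.28 and 2.14, and -0.033 and 0.19, those of Hoxb8 in WT_HFD against WT_SD between -1.55 and -0.50, and those of Hoxb4 in TG_SD against WT_SD between -0.51 and -0.09. Without surrogate variables Hoxb8 in WT_HFD against WT_SD was at -1.44 (unadjusted p = 0.0357, edgeR), and it was not called. The number of members called higher in brainstem than in hippocampus was 21 of 21 tested with a total count of at least 50, 20 of 20 with filterByExpr and 22 of 27 with no filter, against 9 of 9, since these filters test more genes. Of all genes 33.1%, 32.9% and 24.7% were then higher. It stayed at 9 when each WT_SD brainstem library was left out.

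The median log2 ratio of groups 6 to 13 over groups 1 to 5 was -2.70, lay between -2.64 and -2.36 under the other definitions and between -2.71 and -2.68 when 1 library was left out. Hippocampal Hox CPM was 0.273% of that in brainstem, 0.249% with library totals, 0.213% without Hoxd1, 0.265% to 0.283% without 1 WT_SD brainstem library, and 0.245% without hippocampus TG_SD replicate 5, an alternative chosen after seeing the data. The count of relations with Hoxb8 that passed was 9, and 11 without the 2 extreme libraries.

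The replicate numbers were checked for pairing of brainstem libraries across groups. Deviations of the 26 same-numbered pairs correlated at -0.314 to 0.404 (median 0.039), with 10 over 0.1. The median for pairs of other numbers was -0.026. These values cannot exclude pairing. The study assigned diets at random within litters. The litter of each library was not given in the sources used here, so its part was not tested. The study took both regions from the animals of each group, so a brainstem and a hippocampus library may share an animal. Pairing across the regions was not tested, and the main fit over both regions ignored it. A fit with the replicate number as a block called 0 members in every brainstem contrast, beside 0 to 6 of all 13340 genes. Between the regions it called 9 higher in brainstem, beside 31.6% of all genes. The 12 members without a row gave no value. The 17 brainstem members under a mean of 50 counts were tested between groups only under the looser filters. Without a filter 0 of them were called (edgeR), beside 2 to 30 of all 33139 genes per contrast. The smallest adjusted p was 0.539 for Hoxb9 (0.304 counts per library, edgeR). Hoxb9, Hoxc8, Hoxb7, Hoxc6 and Hoxb2 had an unadjusted p under 0.05 in at least 1 contrast (edgeR). Hoxb9 and Hoxc8 had 7 and 2 counts over all brainstem libraries, too few for such a p to be read. The number of all genes at such a p was not taken in this fit, so these members are not read as a result.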
